A study of Mus musculus with 2 samples.

Results

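The Hippo pathway genes described here are 10 rows of the deposited gene count table, chosen by gene symbol out of the 54532 genes listed: the coactivator genes Yap1 and Wwtr1 (which encodes TAZ), the transcription factor genes Tead1, Tead2, Tead3 and Tead4, the kinase genes Lats1 and Lats2, and the scaffold genes Nf2 and Sav1. All 10 were in the table; they were picked by name, with earlier results of these data known. The series compared 4T1 cells, a mouse breast carcinoma line from the BALB/c strain, in wild-type form and with a knockout of Cd28, whose product is a costimulatory receptor best studied in T cells. Each form is represented by 1 sample, whose poly(A) RNA was sequenced, and whether the knockout cells derive from 1 clone is not given in the sources used here. The knockout library was analysed. A further count column is named like neither sample, so it was not used, and no value below is a change caused by the knockout.

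The Hippo pathway restrains growth by keeping a pair of coactivators out of the nucleus. In its core, MST kinases bound to the scaffold SAV1 activate the LATS kinases, which NF2 (merlin) helps to recruit to the membrane. LATS phosphorylates YAP and TAZ, which are then held in the cytoplasm by 14-3-3 proteins or degraded. Unphosphorylated YAP and TAZ enter the nucleus and, having no DNA-binding domain, act through TEAD proteins on genes of growth, adhesion and matrix. Because this control acts largely on proteins, mRNA levels do not show how active the pathway was.

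In all, 15565990 reads of the library were counted on genes. A gene's level is its reads per 1000000 of these (CPM), with an exact Poisson 95% interval. For comparing genes with each other, reads per base of deposited length were scaled so that all genes add up to 1000000 (TPM). Detection was set at a minimum of 10 reads, and the percentile of a gene says what percentage of the 11497 detected protein-coding genes had a lower TPM. The median TPM of those genes was 24.4. With 1 library there is no replicate spread, and the protocol mentions no molecular identifiers, so every interval covers counting error only. The targeted gene Cd28 had 8 reads, and without a wild-type level this cannot check the label. Of 9 epithelial markers 8 were detected, with 0 reads for Cldn7, whereas 2 of 7 fibroblast markers, 0 of 6 leukocyte markers and 0 of 4 endothelial markers were.

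All 10 Hippo genes were detected, against 52.15% of the 22046 protein-coding genes. Of the 10, 8 exceeded the median TPM of detected genes, against 26.1% of protein-coding genes. That share includes undetected genes, whereas by definition 5748 of the 11497 detected genes exceed their own median. The counts of the 10 Hippo genes ran from 431 reads for Lats2 to 3826 for Wwtr1, and together they took 0.13% of the library. By TPM the order was Wwtr1, Tead2, Nf2, Yap1, Lats1, Tead1, Sav1, Tead4, Tead3 and Lats2, spanning 12.9-fold. Of the 9 pairs of neighbours in this order, Sav1 and Tead4 did not differ beyond counting error (ratio 1.04, exact binomial 95% interval 0.928 to 1.17). The closest others were Lats1 over Tead1 at 1.10 (1.04 to 1.16) and Tead2 over Nf2 at 1.12 (1.07 to 1.18). The median TPM of the 10 genes was 46.2. Replacing the deposited length by that of 1 coding transcript moved the TPM of 7 of the 10 genes beyond their counting intervals and turned the order of 3 of the 9 pairs. Nf2 to Yap1 went from 1.33 to 0.867 (0.826 to 0.910), Lats1 to Tead1 from 1.10 to 0.815 (0.77 to 0.864), and Tead4 to Tead3 is given below. With those lengths Sav1 exceeded Tead4 1.85-fold (1.66 to 2.08), whereas Tead1 and Sav1 did not differ beyond counting error (1.04, 0.958 to 1.12). The count above the median was again 8, but with Tead3 in place of Tead4.

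**Figure D1:**
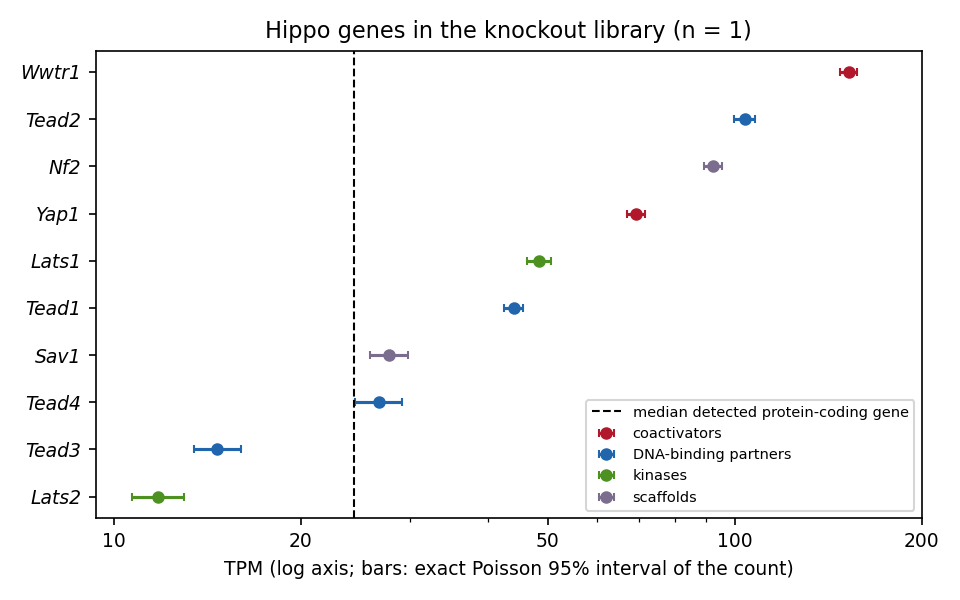
TPM of each of the 10 Hippo genes in the single knockout library, on a log axis, with the exact Poisson 95% interval of the count as bars, colours for the role of the protein and a dashed line at the median detected protein-coding gene (24.4 TPM). Wwtr1 is highest at 153 TPM, and Tead3 and Lats2 are the genes left of the line.

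The coactivator genes were both well expressed, and whether Wwtr1 exceeded Yap1 beyond counting error depended on the gene length used. Wwtr1 (ENSMUSG00000027803, chromosome 3, 57455649 to 57575910, minus strand, mm10) had 3826 reads, or 246 CPM (238 to 254). Its TPM of 153 lay at percentile 93.5. Yap1 (ENSMUSG00000053110, chromosome 9, 7931999 to 8004596, minus strand) had 3365 reads, or 216 CPM (209 to 224). Its TPM of 69.3 lay at percentile 81.3. Per base of deposited length Wwtr1 was 2.20-fold higher (exact binomial 95% interval 2.10 to 2.31).

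The deposited length is the merged length of all annotated exons, 9257 bases for Yap1 and 4779 for Wwtr1. The transcript with the longest coding part measures 4171 bases for Yap1 and 4533 for Wwtr1 in the GENCODE vM21 annotation (GRCm38). With those lengths the ratio was 1.05 (0.999 to 1.10), an interval that includes 1, and the TPM was 107 for Yap1 and 112 for Wwtr1. In reads alone the ratio was 1.14 (1.09 to 1.19). Which transcripts the cells made cannot be read from a count per gene. The 2.20-fold value is tied to the merged length, whereas both genes lay at percentile 81.3 or higher under either length.

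The pair differ widely in sequence. Their coding sequences were identical at 59.2% of 1226 aligned bases, and the longest identical run in the chosen transcripts was 15 bases. The most alike ungapped stretch of 60 coding bases, shown to let the pair be compared at their closest, lies in the last exon of each gene and matched at 47 positions; capitals mark the differences, and the strand shown is that of the mRNA, 5′ to 3′. It lies at chr9:7934643-7934702 (minus strand, exon 9 of 9) for Yap1 and at chr3:57459015-57459074 (minus strand, exon 7 of 7) for Wwtr1.
Yap1: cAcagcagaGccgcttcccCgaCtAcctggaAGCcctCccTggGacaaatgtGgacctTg
Wwtr1: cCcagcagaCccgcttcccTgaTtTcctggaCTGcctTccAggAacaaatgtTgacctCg
Of the 100-base stretches of the chosen transcripts, 99.6% for Yap1 and 100% for Wwtr1 occur in no transcript of another annotated gene. The noncoding gene Gm20416, which overlaps 116 exon bases of Yap1 on the opposite strand, had 0 reads.

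Tead2 and Tead1 made up most of the TEAD mRNA. Tead2 (ENSMUSG00000030796, chromosome 7, 45215753 to 45233644, plus strand) had 2605 reads, or 167 CPM (161 to 174), and a TPM of 104 at percentile 88.7. Tead1 (ENSMUSG00000055320, chromosome 7, 112679318 to 112906807, plus strand) had more reads, 3139, or 202 CPM (195 to 209). Its deposited length of 13570 bases is the longest of the 10 genes, and its TPM was 44.1 at percentile 68.9. Per base, Tead2 was 2.35-fold higher than Tead1 (2.23 to 2.48), whereas in reads it was lower, at 0.83 (0.788 to 0.874). With the transcript length, 3396 bases for Tead2 and 9964 for Tead1, the ratio was 2.43 (2.31 to 2.57). Tead2 thus led Tead1 under both lengths. The 2 genes share chromosome 7 but lie 67.4 Mb apart.

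Tead4 and Tead3 were lower. Tead4 (ENSMUSG00000030353, chromosome 6, 128224288 to 128300823, minus strand) had 504 reads, or 32.4 CPM (29.6 to 35.3), and a TPM of 26.7 at percentile 52.9 (50.03 to 55.8). Tead3 (ENSMUSG00000002249, chromosome 17, 28331671 to 28350817, minus strand) had 517 reads, or 33.2 CPM (30.4 to 36.2), and a TPM of 14.7 at percentile 35.0. Their read counts did not differ beyond counting error (ratio of Tead4 to Tead3 0.975, 0.861 to 1.10). Per base of deposited length Tead4 was 1.82-fold higher (1.61 to 2.06), but with the transcript length it was lower, at 0.776 (0.685 to 0.879), since the chosen Tead3 transcript has 2448 bases against a merged length of 6714. Tead3 then had a TPM of 27.9 at percentile 52.4 and Tead4 21.7 at percentile 44.5, so that they changed sides of the detected median. The order of these 2 genes was therefore not settled, while Tead1 remained above Tead4 under both lengths, at 1.65 (1.5 to 1.82) and 1.92 (1.75 to 2.12).

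As shares of the summed TEAD level per base, Tead2 held 54.8%, Tead1 23.3%, Tead4 14.1% and Tead3 7.76%. With transcript lengths the shares were 52.6%, 21.6%, 11.2% and 14.5% in the same order. The summed TPM of the 4 TEAD genes was 189, beside 222 for Yap1 and Wwtr1 together. In reads without length correction Tead1 took the largest share, 46.4%, and Tead2 38.5%.

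**Figure D2:**
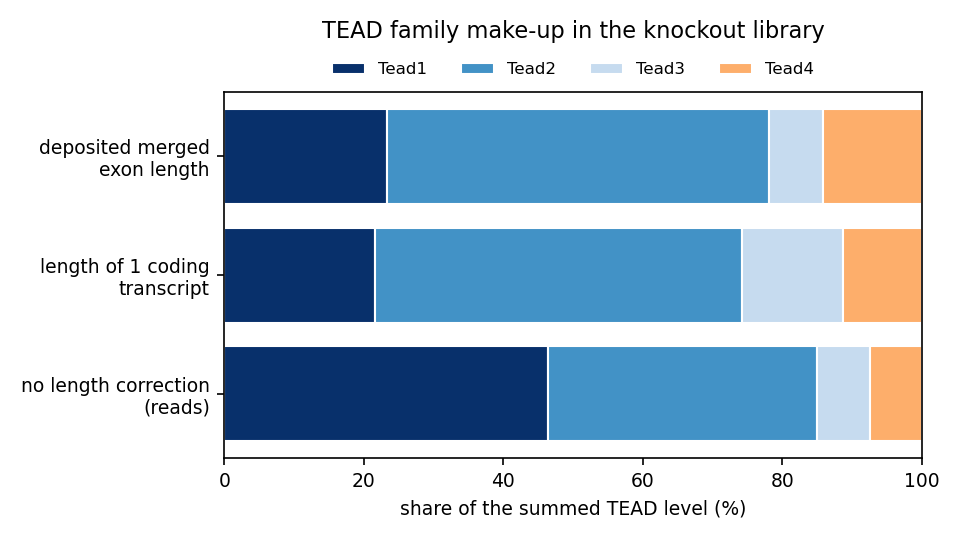
Share of each TEAD gene in the summed TEAD level of the knockout library, in percent, computed per base of the deposited merged exon length, per base of 1 coding transcript and from reads alone. Tead2 holds 54.8% and 52.6% with the 2 lengths and 38.5% of the reads, where Tead1 holds 46.4%.

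The TEAD proteins share a DNA-binding TEA domain, and their mRNAs are alike in parts. Between pairs of TEAD genes 66% to 71.4% of aligned coding bases were identical, with Tead3 and Tead4 the most alike and Tead2 and Tead3 the least. The longest run identical between 2 chosen transcripts was 59 bases, for Tead3 and Tead4, followed by 35 for Tead2 and Tead3; each remaining pair had at most 23. The 60 coding bases most alike over all 4 genes matched at 46 positions and are shown because they are the stretch in which the family as a whole is most alike. Capitals mark positions at which the 4 are not all the same. The stretches lie at chr7:112759525-112759584 (plus strand, exon 2 of 14) for Tead1, chr7:45217336-45217395 (plus strand, exon 1 of 11) for Tead2, chr17:28341404-28341463 (minus strand, exon 2 of 13) for Tead3 and chr6:128270923-128270982 (minus strand, exon 2 of 12) for Tead4.
Tead1: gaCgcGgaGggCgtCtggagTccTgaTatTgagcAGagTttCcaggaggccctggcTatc
Tead2: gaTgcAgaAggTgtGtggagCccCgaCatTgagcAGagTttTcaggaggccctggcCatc
Tead3: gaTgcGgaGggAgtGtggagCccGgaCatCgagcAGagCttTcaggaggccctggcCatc
Tead4: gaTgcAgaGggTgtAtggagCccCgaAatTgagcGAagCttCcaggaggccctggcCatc
For each TEAD gene 100% of the 100-base stretches of the chosen transcript occur in no transcript of another gene. With 50-base stretches the percentage was 100 for Tead2, 99.7 for Tead1 and Tead4 and 99.6 for Tead3. Tead3 and Tead4 shared such stretches with each other, and Tead1 with 453 other genes. The read length is not given in the sources used here.

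Lats1 exceeded Lats2, the kinases that phosphorylate YAP and TAZ. Lats1 (ENSMUSG00000040021, chromosome 10, 7681214 to 7716460, plus strand) had 1852 reads, or 119 CPM (114 to 125), and a TPM of 48.4 at percentile 71.8. Lats2 (ENSMUSG00000021959, chromosome 14, 57689662 to 57758388, minus strand) had 431 reads, or 27.7 CPM (25.1 to 30.4), and a TPM of 11.8 at percentile 29.8 (27.8 to 31.9), the lowest of the 10 genes with the deposited length. The ratio of Lats1 to Lats2 per base was 4.11 (3.69 to 4.57).

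The Lats2 count is less certain than its interval says. Gm49361, annotated as protein-coding on the same strand, shares 2955 exon bases with Lats2, which is 42.4% of the merged exon length of Lats2 and 56.9% of its chosen transcript. Accordingly 43.9% of the 100-base stretches of the Lats2 transcript occur in no other gene, against 100% for Lats1. Gm49361 is listed at 0 reads, and how reads on exons of 2 genes were treated is not given in the sources used here. Divided by the 4016 exon bases under no other gene, in place of 6971, the Lats2 reads gave a TPM of 20.5 at percentile 44.6 and a ratio of Lats1 to Lats2 of 2.36 (2.13 to 2.63). Lats2 then lay above Tead3 at 14.7 and was no longer the lowest. With transcript lengths the ratio was 3.09 (2.78 to 3.44). Lats1 was higher under every length used, by 2.36-fold to 4.11-fold. No length used took both the chosen transcript and the overlap into account, although 56.9% of the Lats2 transcript is shared. The size of the lead with both is therefore not known. The part of the overlap in the Lats2 count was not tested.

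The kinase genes also differ in sequence. Over 3063 aligned coding bases 60.5% were identical, and the longest identical run of the chosen transcripts was 22 bases. Their most alike 60 coding bases matched at 55 positions and are shown for that reason, with the differences in capitals. They lie at chr10:7705763-7705822 (plus strand, exon 5 of 8) for Lats1 and chr14:57697136-57697195 (minus strand, exon 5 of 8) for Lats2.
Lats1: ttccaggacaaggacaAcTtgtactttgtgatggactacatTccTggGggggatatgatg
Lats2: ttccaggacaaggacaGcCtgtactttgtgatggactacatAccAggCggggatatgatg

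**Figure D3:**
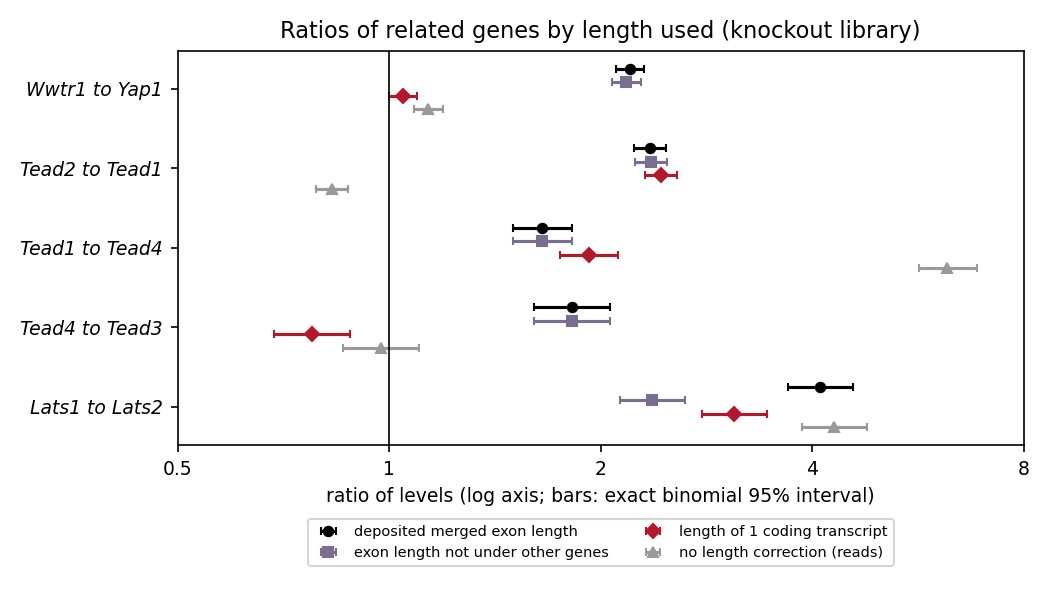
Ratios of related Hippo genes within the knockout library on a log axis, with exact binomial 95% intervals, computed with the deposited merged exon length, the exon length not under other genes, the length of 1 coding transcript, and reads alone; the line marks a ratio of 1. Tead4 to Tead3 falls on both sides of 1, as does Tead2 to Tead1, which is 0.83 in reads alone. Lats1 to Lats2 stays between 2.36 and 4.30.

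Of the scaffold genes, Nf2 was 3.32-fold above Sav1 per base of deposited length. Nf2 (ENSMUSG00000009073, chromosome 11, 4765845 to 4849536, minus strand), whose product merlin links membrane and cytoskeleton, had 3302 reads, or 212 CPM (205 to 219), and a TPM of 92.2 at percentile 86.9. With the transcript length its TPM was 92.5. Sav1 (ENSMUSG00000021067, chromosome 12, 69965012 to 69987002, minus strand), the partner of the MST kinases, had 767 reads, or 49.3 CPM (45.8 to 52.9), and a TPM of 27.8 at percentile 54.2. Exons of Atl1 on the opposite strand cover 1336 bases, 25.4% of the merged exon length of Sav1 and 52.9% of its chosen transcript. Atl1 itself had 75 reads, and the strand setting of the counting is not given in the sources used here. Dividing all 767 reads by the 3929 bases free of other genes gave Sav1 a TPM of 37.2. No read was left out, so this value presumes that none of them lay on the shared bases. With the transcript length the TPM was 40.2. The part of Atl1 in the Sav1 count was not tested.

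Other genes of the core module were all detected. For this and the lists below, the shares over all protein-coding genes were 52.15% detected and 26.1% above the median. Of the 11497 detected genes, 5748 exceed the median by definition. Mob1a, an activating subunit of LATS, had 3291 reads and a TPM of 131 at percentile 91.9. Its paralog Mob1b had 1668 reads and a TPM of 21.2, over a deposited length of 15033 bases against 4794 for Mob1a. Among the MST kinase genes, Stk4 had 36.9 (34.8 to 39.1) and Stk3 18.8 (17.3 to 20.4). Of these 4 genes Mob1a and Stk4 exceeded the detected median. With transcript lengths 3 did, and without length correction, or against genes with at least 1 read, all 4 did. A further list held MAP4K and TAO kinases, which act on LATS or MST, and the NDR kinases, relatives of LATS. Of its 12 genes 12 were detected and 8 exceeded the median. Map4k4 led this list with a TPM of 124, followed by Taok1 with 58.2 and Mink1 with 47.3.

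Genes acting upstream of LATS at the membrane and at junctions ranged from 0 reads to 255 TPM. Of 24 listed, 19 were detected and 13 exceeded the median, with a list median of 28.9 TPM. Amotl1, a motin that binds YAP, had 255, Ctnna1, alpha-catenin of adherens junctions, 194, and Amotl2 137. The large cadherin genes Fat4, Dchs1 and Dchs2, mammalian counterparts of the Drosophila Fat and Dachsous genes, had 0, 1 and 2 reads. The polarity genes Crb1 and Crb2 had 0 reads each. Their relatives Fat1 and Crb3, named after their values were seen, were detected. Fat1 had 8641 reads and a TPM of 105 at percentile 88.9, and Crb3 had 126 reads and a TPM of 15.4. A count of 0 allows up to 3 reads, or 0.193 CPM, by the one-sided 95% limit, and 0.237 CPM by the upper end of the exact interval. Of 20 genes listed as inhibitors of MST or LATS, from STRIPAK, the AJUBA family and others, 18 were detected and 15 exceeded the median. Ppp2r1a, the PP2A scaffold of the STRIPAK complex, had a TPM of 234, and Ajuba, a LIM protein that inhibits LATS, 201. The PP2A catalytic subunit Ppp2ca had 82.1, and exons of other genes cover 41.3% of its merged exon length. Stk26 and Wtip had 0 reads.

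Genes acting on YAP and TAZ protein were mostly abundant. Of 11 genes for 14-3-3 proteins, casein kinases and ubiquitin ligase subunits, 11 were detected and 9 exceeded the median, with a list median of 148 TPM. The 14-3-3 genes Ywhae, Ywhaz and Ywhag led with 644, 403 and 238. Those below the detected median, named after their values were seen, were the 14-3-3 gene Sfn with 19.4 and the ubiquitin ligase gene Btrc with 4.93. Among the VGLL genes, whose products bind TEADs in place of YAP and TAZ, Vgll4 had 36.7 and Vgll3 8.59, and Vgll1 and Vgll2 had 0 reads. Vgll4 thus lay between Tead1 at 44.1 and Tead4 at 26.7.

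**Figure D4:**
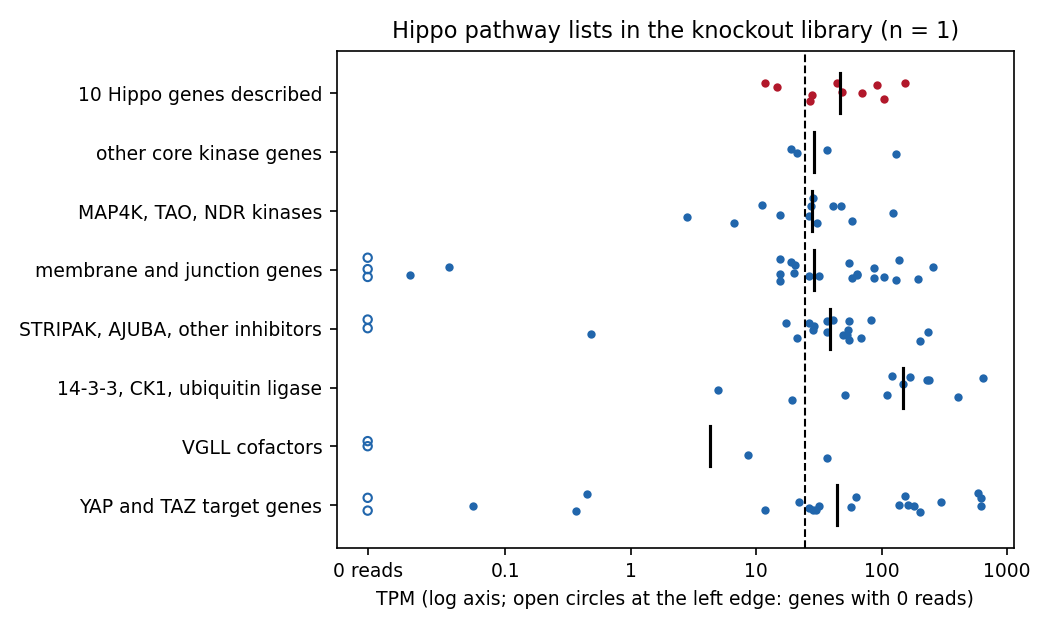
TPM of each gene in the knockout library on a log axis, for the 10 Hippo genes (red) and 7 lists of pathway genes (blue); black bars are list medians, the dashed line is the median detected protein-coding gene (24.4 TPM), and open circles are genes with 0 reads. Target genes reach from 0 reads to 622 TPM, while the 10 Hippo genes span 11.8 to 153.

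Target genes of YAP and TAZ covered a wide range. Of 22 genes in a list of commonly used targets, 18 were detected and 15 exceeded the median, and the list median of 44.3 TPM stood beside 46.2 for the 10 Hippo genes. Ankrd1, a nuclear ankyrin-repeat protein gene, had 5757 reads and a TPM of 622 (606 to 638). Cyr61, also named Ccn1, which encodes a secreted matricellular protein, had 6572 reads and a TPM of 621 (606 to 636). Axl, a receptor tyrosine kinase gene, had 586 (577 to 596). Each of these 3 exceeded every one of the 10 Hippo genes. Ctgf, or Ccn2, named after its value was seen, had 299.9, and exons of another gene cover 23.2% of its merged exon length. At the other end, Fjx1 had 6 reads, Rbms3 had 3, and Foxf2 and Igfbp3 had 0. Lats2, itself on the target list, was among the genes below the median. Many of these genes respond to other pathways too, so the list does not measure YAP or TAZ activity.

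Promoters were searched for GGAATG, the core of the TEAD recognition motif, on both strands, in RefSeq windows of 300 bases (250 before to 50 after a start site, build GRCm38.p6). The letters occurred in 14.7% of all 32851 windows. Of the 10 Hippo genes 8 had a window, and 5 of these, Wwtr1, Yap1, Sav1, Lats2 and Tead3, held the letters in at least 1 window. Of the 22 target genes 15 had a window and 7 held the letters. Several genes have more than 1 window: the letters were in 7 of 13 windows of the Hippo genes (53.8%), where those of Wwtr1 and some of Tead3 overlap, and in 7 of 17 of the target genes (41.2%). No test was made. The 250 bases before the start sites of Ankrd1 and Ccn1 are shown because these targets were the most abundant per base; capitals mark the letters, CATTCC being GGAATG on the other strand. The Ankrd1 window is chr19:36119845-36120094 and the Ccn1 window chr3:145649986-145650235, both printed along the minus strand, 5′ to 3′.
Ankrd1: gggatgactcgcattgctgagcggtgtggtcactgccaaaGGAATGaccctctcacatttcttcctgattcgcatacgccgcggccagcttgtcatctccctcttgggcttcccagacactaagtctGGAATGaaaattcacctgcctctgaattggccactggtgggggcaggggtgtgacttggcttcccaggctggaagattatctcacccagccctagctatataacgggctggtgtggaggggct
Ccn1: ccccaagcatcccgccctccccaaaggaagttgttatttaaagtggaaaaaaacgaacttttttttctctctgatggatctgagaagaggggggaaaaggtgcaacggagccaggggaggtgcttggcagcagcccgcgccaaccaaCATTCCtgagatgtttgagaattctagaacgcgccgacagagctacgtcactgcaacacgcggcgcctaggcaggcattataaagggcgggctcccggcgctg
Counted from the start site, the letters begin at positions -210 and -123 in Ankrd1 and at -103 in Ccn1. A match is a description of the sequence and shows neither binding nor control in these cells.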

How the data were processed

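Poly(A) RNA of 1 wild-type and 1 knockout sample was sequenced. The authors deposited raw read counts for each gene, with its position and length. The tools named in the submitters' processing notes are HISAT2 2.0.5, CASAVA and featureCounts 1.5.0-p3, and the build is mm10. For the annotation release, strand setting and reads with several positions, the choice is not given in the sources used here. The count column headed with the knockout sample's title was used. Another 1 column of per-sample values matches no sample label and was not used, so the planned ratio of knockout to wild type was not computed.

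From the deposited counts, CPM, TPM and percentiles were computed with exact Poisson 95% intervals, and ratios of 2 genes with exact binomial (Clopper-Pearson) intervals. Shortened lengths had a floor of 100 bases. GENCODE vM21 (GRCm38) gave transcripts and exon overlaps; position and merged exon length were identical to the table's for all 10 genes. Coding sequences were aligned with MAFFT 7.526. Python 3.11.15, numpy 2.4.6, pandas 2.3.3 and scipy 1.17.1 were used. In simulated counts 96.1% of intervals for 20770 genes held the true mean, and 94.5% of intervals for 200 ratios held the true ratio; these draws were Poisson, as the intervals assume.

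The 10 genes and all lists were chosen with earlier results of these data known. From each list the 3 genes with the highest TPM and those with fewer than 10 reads were named. Ctgf, Fat1, Crb3, Sfn and Btrc were named after their values were seen.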

Additional observations from a re-analysis of the deposited data

Results flagged for a closer look

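Genes that overlap the Hippo genes had reads above the 3 that a count of 0 allows, in rows that no comparison used. Over Sav1, Atl1 had 75 reads, and the processed pseudogenes Gm19221 and Gm19144, which touch none of its exons, had 59 and 28. The noncoding gene 2310014F06Rik at Tead1 had 33 reads and shares no exon base with it. Cd37, which overlaps 13 exon bases of Tead2 on the opposite strand, had 19. The processed pseudogene Gm20430 within Lats2 had 5.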

How the results depend on the processing

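No paired analysis was possible because a single library was analysed; leaving out a replicate was not possible either, and variation between cultures was not measured. The ratio to wild type was not run. Depth was enough to count all 10 genes at a minimum of 100 reads. With the length of 1 coding transcript the ratio of Wwtr1 to Yap1 moved from 2.20 to 1.05, Tead1 to Tead4 to 1.92, Lats1 to Lats2 to 3.09, and Tead4 to Tead3 reversed to 0.776; the shares of Tead1, Tead2, Tead3 and Tead4 became 21.6%, 52.6%, 14.5% and 11.2%, and the median TPM of the 10 genes 40.9. Without length correction the ratios were 1.14 for Wwtr1 to Yap1, 6.23 for Tead1 to Tead4, 0.83 for Tead2 to Tead1 and 0.975 for Tead4 to Tead3, the last 2 reversed; the shares of Tead1, Tead2 and Tead4 were 46.4%, 38.5% and 7.45%. These moves follow from the lengths used. With 1 fragment length of 395 bases subtracted, Tead2 to Tead1 was 2.49, the Tead1 share 22.3% and the median TPM 32.2. The TPM of each of the 10 Hippo genes then fell below its counting interval. It was 0.688 to 0.75 of the value with the full deposited length. The exon length under no other gene, chosen after seeing the data, moved Lats1 to Lats2 to 2.36 and the TPM of Lats2 and Sav1. The count of the 4 other core module genes above the median was 4 in place of 2 both without length correction and against genes with at least 1 read. Other recounts of lists stayed within 1.5 times, and 8 of the 10 Hippo genes exceeded the median with transcript lengths and 7 without length correction.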
